A study of Mus musculus with 12 samples.

Results

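Metallothioneins, the zinc sensor MTF1 and 3 zinc transporters were described here in 2 mouse cell lines. The 6 genes were Mt1, Mt2, Mtf1, Slc30a1, Slc39a10 and Slc39a14, out of 55421 gene identifiers in the count table. They were selected on the measured rise of Mt1 and Mt2 in rebastinib-treated cells. Their values in treated against control cells are therefore a description and carry no test.

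The study sequenced messenger RNA from 12 libraries in 4 groups of 3. The first group was ID8 cells after 6 h with 5 nM rebastinib, a small-molecule kinase inhibitor that acts on the angiopoietin receptor TIE2. The second was control ID8 cells. The third was PMJ2R cells given the same rebastinib dose and time, and the fourth was control PMJ2R cells. The labels do not name a vehicle for the controls. ID8 is labelled an ovarian epithelial line of wild-type C57BL6J origin, and PMJ2R a macrophage line from peritoneal lavage of C57BL6J that carries the v-raf and v-myc oncogenes in treated and control cells alike. Both lines are labelled female, and each line stands for its cell type alone. They were grown in different media, and only ID8 cells were detached with trypsin and only the ID8 medium held ITS, a supplement, so line, medium and handling cannot be told apart. Nothing in the labels says whether the 3 replicates came from separate cultures, and the p-values therefore reflect library-to-library spread that may be technical. The chemotherapy arms of the study were not analysed here.

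Metallothioneins are small cysteine-rich proteins that bind zinc and copper ions and buffer them in the cell. When free zinc increases, MTF1 (metal regulatory transcription factor 1) binds metal response elements in promoters and drives Mt1, Mt2 and Slc30a1. Slc30a1 encodes ZnT1, which exports zinc across the plasma membrane. Slc39a10 (ZIP10) and Slc39a14 (ZIP14) encode importers, and in mice MTF1 is known to repress Slc39a10. ZIP14 also carries iron and manganese.

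The promoter windows of the 3 genes best known as zinc-induced are shown because their metal response elements are the part of the sequence that MTF1 reads. Each runs 5′ to 3′ on the plus strand from 250 bases before the RefSeq start to 30 bases from the start on (RefSeq, GRCm38.p6). Mt1 lies at chr8:94178839-94179118, Mt2 at chr8:94172368-94172647 and Slc30a1 at chr1:191906531-191906810. Capitals mark matches to the metal response element letters TGCACNC or TGCGCNC on either strand.
Mt1: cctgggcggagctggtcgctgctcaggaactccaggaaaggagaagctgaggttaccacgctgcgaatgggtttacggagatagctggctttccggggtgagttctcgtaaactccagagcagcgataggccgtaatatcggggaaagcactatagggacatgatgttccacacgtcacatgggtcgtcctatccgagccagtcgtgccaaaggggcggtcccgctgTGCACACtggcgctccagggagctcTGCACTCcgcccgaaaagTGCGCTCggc
Mt2: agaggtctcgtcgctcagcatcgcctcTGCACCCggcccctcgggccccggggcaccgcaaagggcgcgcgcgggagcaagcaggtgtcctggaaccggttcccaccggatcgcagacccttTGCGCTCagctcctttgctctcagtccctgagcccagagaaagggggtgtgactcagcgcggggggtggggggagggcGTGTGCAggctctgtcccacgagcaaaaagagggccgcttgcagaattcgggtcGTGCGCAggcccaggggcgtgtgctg
Slc30a1: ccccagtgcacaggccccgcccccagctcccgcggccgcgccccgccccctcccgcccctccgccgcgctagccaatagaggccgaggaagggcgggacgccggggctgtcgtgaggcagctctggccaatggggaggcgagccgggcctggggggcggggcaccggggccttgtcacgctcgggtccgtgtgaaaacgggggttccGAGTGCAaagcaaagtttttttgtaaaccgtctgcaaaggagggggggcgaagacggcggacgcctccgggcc

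The Mt2 window held 4 matches, the Mt1 window 3 and the Slc30a1 window 1. Matches outside these windows were not counted, so the numbers do not describe whole promoters. The Mt2 window ends at 94172647, before the GENCODE gene start at 94172664. Among 32851 windows of the same length, 24.1% held at least 1 match, 1.73% at least 3 and 0.405% at least 4. The Mtf1 window held 0 matches, as did both Slc39a10 windows. RefSeq windows were matched for 5 of the 6 genes, all but Slc39a14. The antioxidant response element letters TGACNNNGC, searched on both strands and found in 11.5% of windows, had 1 match each in the Mt2 and Slc30a1 windows and 0 in the Mt1 window. A match describes the letters and is not a binding site.

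Library totals ran from 19025504 to 27070556 counts. Of 10 macrophage markers, 9 stood at 1 CPM (the count relative to the library total) or more in both PMJ2R groups, and Mertk did not. Of 8 markers of ovarian surface epithelium and mesothelium, 7 did so in rebastinib-treated ID8 and 8 in control ID8, against 0 in PMJ2R. Ribosomal protein genes held 8.45% to 10.5% of counts in rebastinib-treated and 4.58% to 5.29% in control ID8, and 7.52% to 7.82% in treated and 4.90% to 5.66% in control PMJ2R. Genes overlapping ribosomal RNA held 1.05% to 1.60% in treated and 0.106% to 0.355% in control ID8, and 5.63% to 5.99% in treated and 0.0927% to 0.172% in control PMJ2R. Mitochondrially encoded genes held 4.74% to 5.12% in treated and 2.92% to 3.14% in control ID8, and 5.51% to 5.88% in treated and 3.50% to 4.25% in control PMJ2R. The part of these 3 shares in the values below was not tested. In ID8 the summed level of the 8 epithelial markers was 2695 to 2831 CPM in treated and 4168 to 4418 CPM in control libraries, and that of the 10 macrophage markers was 13.9 to 17.6 CPM in treated and 11.9 to 12.9 CPM in control libraries, with Adgre1, Spi1, Laptm5, Lyz2 and Itgam at 0. The summed level of 5 fibroblast markers was 120 to 161 CPM in treated and 240 to 256 CPM in control ID8, and that of 5 T cell markers was 1.63 to 2.07 CPM in treated and 14.3 to 16.9 CPM in control ID8, with Trac alone at 1 CPM or more and Cd3e, Cd3d and Cd2 at 0. In bulk RNA, fewer cells with a transcript and less transcript per cell cannot be told apart.

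Most genes differed between the groups, which sets the background for every value. With edgeR's quasi-likelihood test at an adjusted p under 0.05, 80.4% of 14829 tested genes differed between treated and control ID8, with 38.4% higher and 42.0% lower. In PMJ2R 83.7% of 14010 tested genes did so, with 40.3% higher and 43.3% lower. The 3 libraries of each group did not overlap for 82.2% of tested genes in ID8 (39.0% higher and 43.2% lower) and for 84.3% in PMJ2R (40.5% higher and 43.9% lower). The median log2 fold change of all tested genes was -0.07 in ID8 and -0.04 in PMJ2R under TMM scaling, which sets libraries to a common trimmed mean of log ratios. With library totals in place of TMM it was -0.50 in ID8 and -0.60 in PMJ2R, and with trends of transcript length and GC content removed it was 0.18 in ID8 and 0.12 in PMJ2R. The CPM of single libraries below use TMM factors over all 12 libraries, whereas each log2 fold change was fitted with factors over its own libraries.

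Mt1 (ENSMUSG00000031765, chr8:94179082-94180327) had more counts in every library than Mt2, the other detected metallothionein gene. Its levels were 334, 248 and 222 CPM in rebastinib-treated ID8, against 19.6, 20.8 and 24.4 CPM in control ID8. In PMJ2R they were 396, 407 and 396 CPM in treated libraries, against 212, 203 and 235 CPM in control libraries. Treated and control libraries did not overlap in either line, as for 82.2% of tested genes in ID8 and 84.3% in PMJ2R. Control ID8 was the lowest group by far. The treated ID8 libraries spread more widely than the treated PMJ2R libraries, with 268 ± 58.4 CPM against 400 ± 6.35 CPM (SD, n = 3 each). The log2 fold change, rebastinib over control, was 3.66 (SE 0.143) in ID8 and 1.03 (SE 0.0507) in PMJ2R. On library totals these values were 3.22 in ID8 and 0.46 in PMJ2R. Ordered from the highest log2 fold change, Mt1 took place 107 of 14829 tested genes in ID8 and place 2100 of 14010 in PMJ2R. As Mt1 was chosen for its rise, these places carry no weight. By group mean the order was treated PMJ2R, treated ID8, control PMJ2R and control ID8, and the libraries of treated ID8 and control PMJ2R overlapped.

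Mt2 (ENSMUSG00000031762, chr8:94172664-94173568), the neighbouring gene, was close to the detection limit in control ID8. It had 1145, 644 and 799 counts in treated ID8 libraries, against 5, 4 and 2 counts in control ID8. These correspond to 62.8, 38.4 and 35.1 CPM in treated and 0.192, 0.153 and 0.0735 CPM in control ID8. In PMJ2R the levels were 21.3, 20.1 and 19.9 CPM in treated libraries, against 3.15, 3.08 and 2.95 CPM in control libraries. Treated and control libraries did not overlap in either line, as for most tested genes. By group mean the order was treated ID8, treated PMJ2R, control PMJ2R and control ID8. The log2 fold change was 8.33 (SE 0.344) in ID8 and 2.88 (SE 0.105) in PMJ2R. With only 11 counts in the control ID8 group, the ratio of summed counts per total was 244, with a 95% interval from 136 to 490 that covers counting error only. In PMJ2R the same ratio was 5.00, with an interval from 4.36 to 5.74. In the same order Mt2 took place 7 in ID8 and place 272 in PMJ2R. The gene was chosen for its rise, so these places carry no weight. In ID8 Mt2 also reached the expression filter's minimum of 0.452 CPM through the treated libraries alone. On library totals the log2 fold changes were 7.89 in ID8 and 2.32 in PMJ2R.

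Reads of Mt2 and of the antisense gene Gm45774 (chr8:94170748-94173412, minus strand) cannot be told apart here, because the strand setting of the counting is not given in the sources used here. Gm45774 covers 432 of the 588 exonic bases of Mt2 and leaves 156 unshared. Its counts followed those of Mt2, with 966, 526 and 672 in treated ID8, against 5, 2 and 2 in control ID8. In PMJ2R they were 307, 302 and 272 in treated and 76, 81 and 65 in control libraries. Outside control ID8, Gm45774 stood at 0.783 to 0.905 of the Mt2 count. Adding these counts to Mt2, an alternative chosen after seeing the data, gave log2 fold changes of 8.37 in ID8 and 2.90 in PMJ2R. The level of Mt2 per length is therefore uncertain. Because Gm45774 stood at a similar share of the Mt2 count in most libraries, this addition could hardly change the fold. It cannot tell from which of both genes the reads came. Mt1 and Mt2 transcripts align over 192 bases at 79.167% identity. Mt3 and Mt4, the metallothioneins known from brain and from stratified epithelium, had 0 counts in all 12 libraries.

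**Figure D1:**
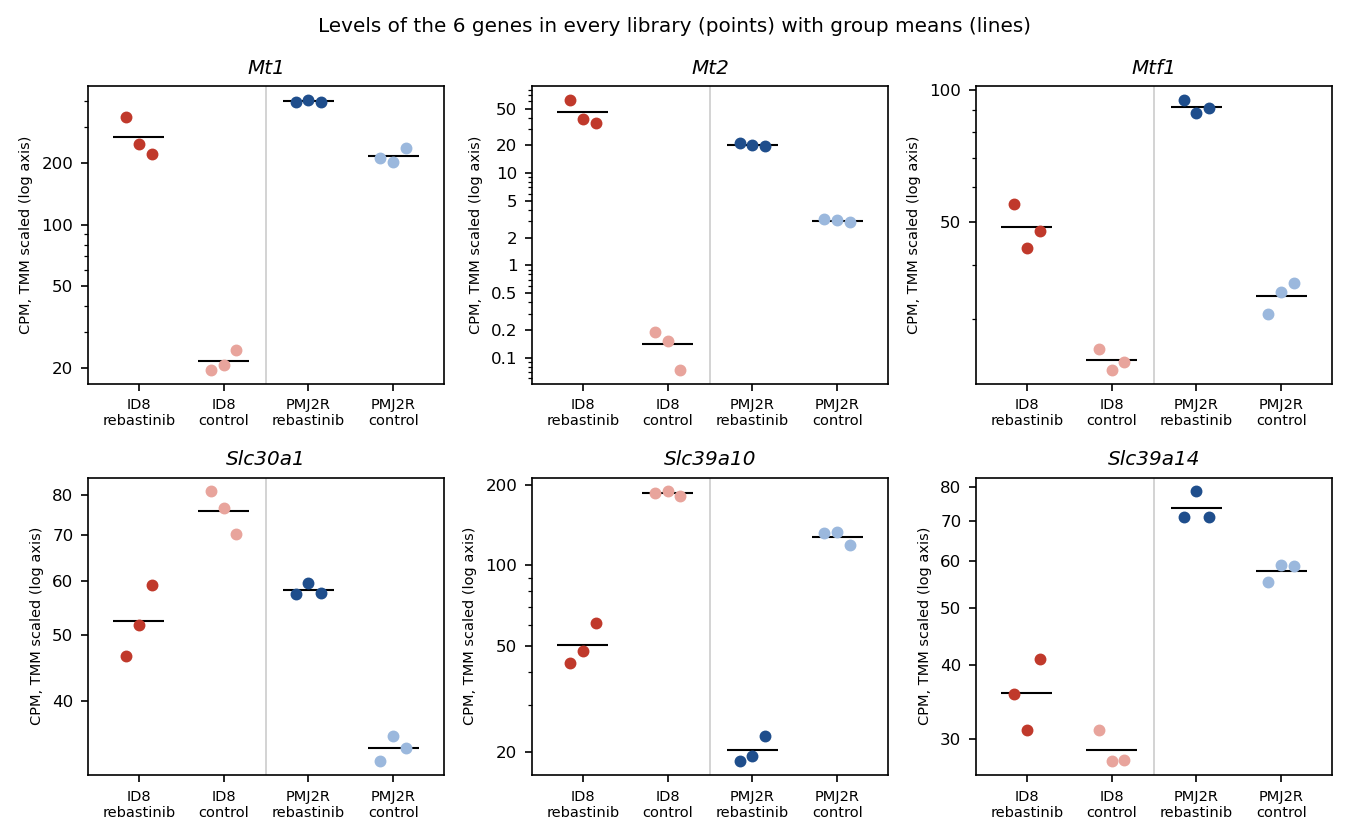
TMM-scaled CPM of each gene in each library on log axes, with 3 points per group and a line at the group mean. Mt1 and Mt2 are lowest in control ID8 and higher in treated than control libraries of both lines, Slc39a10 is lower in treated libraries of both lines, and Slc30a1 is lower in treated ID8 (though 0.16 on the log2 scale with length and GC trends removed) and higher in treated PMJ2R.

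The ratio of both metallothionein transcripts was computed in each library. Counts per mean transcript length gave Mt1 to Mt2 ratios of 3.16, 3.83 and 3.76 in treated ID8, against 60.8, 80.7 and 197 in control ID8. In PMJ2R the ratios were 11.1, 12 and 11.8 in treated libraries, against 40.1, 39.2 and 47.4 in control libraries. Mt1 exceeded Mt2 in every library, and the 4 groups did not overlap. In control cells the log2 ratio averaged 5.40 in PMJ2R and 6.63 in ID8, a difference of -1.23 (n = 3 each). It is a description, since an exact permutation test of 3 against 3 libraries cannot go below p = 0.1 and the control ID8 values rest on 5, 4 and 2 Mt2 counts. The difference ranged from -1.58 to -0.74 when 1 library was left out, and it was -0.74 without control ID8 replicate 3, which holds 2 Mt2 counts. It was -1.26 with the Gm45774 counts added to Mt2. The absolute ratio shares the uncertainty of the Mt2 level.

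**Figure D2:**
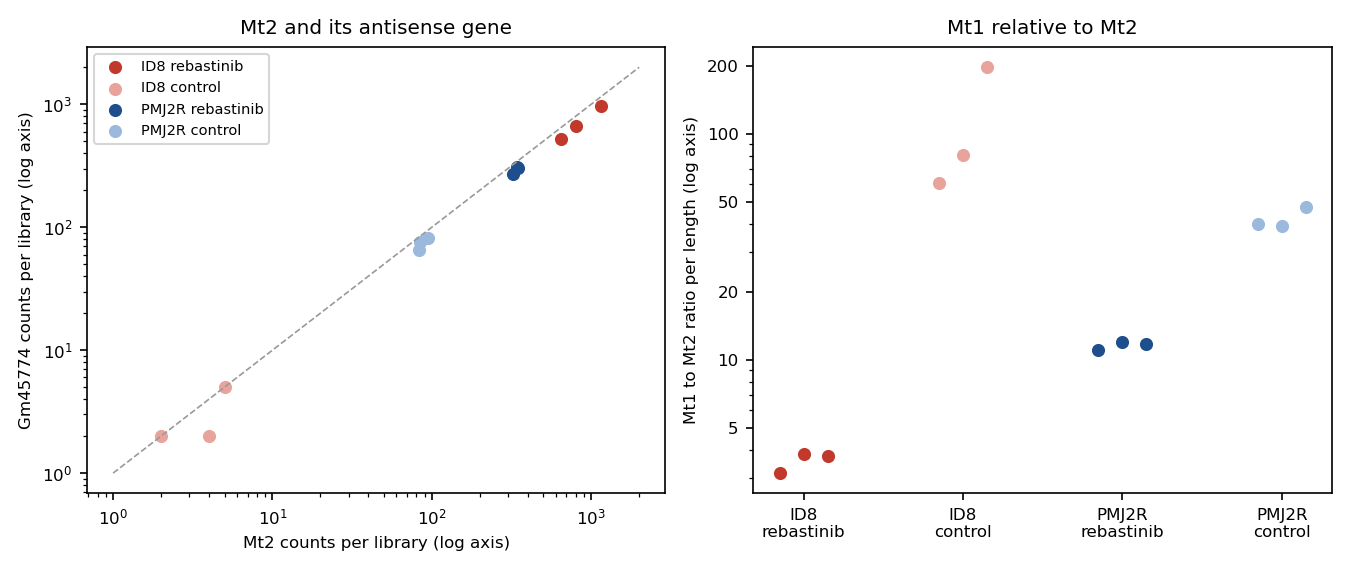
Left, counts of the antisense gene Gm45774 against counts of Mt2 in each of the 12 libraries on log axes, with the dashed line at equal counts. Right, the Mt1 to Mt2 ratio per mean transcript length in each library on a log axis, which is lowest in treated ID8 (3.16 to 3.83) and highest in control ID8 (60.8 to 197).

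Mtf1 (ENSMUSG00000028890, chr4:124802104-124849800) encodes the sensor itself. Its levels were 54.9, 43.6 and 47.6 CPM in treated ID8, against 25.7, 23.0 and 24.0 CPM in control ID8. In PMJ2R they were 95.1, 88.7 and 91.1 CPM in treated libraries, against 30.9, 34.7 and 36.4 CPM in control libraries. Treated and control libraries did not overlap in either line, as for 82.2% of tested genes in ID8 and 84.3% in PMJ2R. By group mean treated PMJ2R was highest, followed by treated ID8, control PMJ2R and control ID8. The log2 fold change was 1.03 (SE 0.0952) in ID8 and 1.58 (SE 0.0622) in PMJ2R. It stayed above 0 under each scaling, with 0.60 in ID8 and 1.01 in PMJ2R on library totals and 1.70 in ID8 and 2.02 in PMJ2R after removal of length and GC trends. Mtf1 shares 721 of 8907 exonic bases with 1110065P20Rik on the other strand. That gene had 373 to 465 raw counts in treated and 351 to 479 in control ID8. In PMJ2R it had 348 to 405 in treated and 326 to 398 in control libraries, not scaled for library size. Relative to the Mtf1 count it stood at 0.429 to 0.51 in treated and 0.582 to 0.732 in control ID8. In PMJ2R that ratio was 0.234 to 0.264 in treated and 0.334 to 0.396 in control libraries.

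Slc30a1 (ENSMUSG00000037434, chr1:191906767-191913247), the exporter gene, lay lower in treated ID8 and higher in treated PMJ2R under TMM scaling. Its levels were 46.6, 51.6 and 59.1 CPM in treated ID8, against 81.2, 76.6 and 70.2 CPM in control ID8. In PMJ2R they were 57.4, 59.5 and 57.5 CPM in treated libraries, against 32.6, 35.5 and 34.1 CPM in control libraries. Neither line's treated and control libraries overlapped, as for 82.2% of tested genes in ID8 and 84.3% in PMJ2R. Treated ID8 and treated PMJ2R overlapped with each other, between control ID8 above and control PMJ2R below. The log2 fold change was -0.51 (SE 0.0888) in ID8 and 0.92 (SE 0.0588) in PMJ2R, and the value in ID8 turned to 0.16 with length and GC trends removed. On library totals it was -0.94 in ID8 and 0.35 in PMJ2R. The response in PMJ2R minus the response in ID8 was 1.36 (SE 0.111) on the log2 scale, given without a test. Slc30a1 shares 468 of 5244 exonic bases with 1700034H15Rik on the other strand, which had 51 to 103 counts in treated and 263 to 314 counts in control ID8, and 153 to 170 in treated and 251 to 323 in control PMJ2R.

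Slc39a10 (ENSMUSG00000025986, chr1:46807544-46892852), encoding the importer ZIP10, was lower after rebastinib in both lines. Its levels were 43.1, 47.6 and 60.6 CPM in treated ID8, against 186, 190 and 182 CPM in control ID8. In PMJ2R they were 18.4, 19.3 and 23.0 CPM in treated libraries, against 132, 133 and 119 CPM in control libraries. Treated and control libraries did not overlap in either line, as for most tested genes. By group mean control ID8 was highest, then control PMJ2R, treated ID8 and treated PMJ2R. The log2 fold change was -1.85 (SE 0.0999) in ID8 and -2.52 (SE 0.0758) in PMJ2R. It lay between -2.28 and -1.51 in ID8 and between -3.08 and -2.38 in PMJ2R under library totals and removal of length and GC trends. In ID8 88.4% of tested genes had a larger log2 fold change, and in PMJ2R 94.0% had one.

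Slc39a14 (ENSMUSG00000022094, chr14:70303469-70351425), encoding ZIP14, showed small differences whose direction depended on the scaling. Its levels were 35.7, 31.1 and 41.0 CPM in treated ID8, against 31.1, 27.5 and 27.7 CPM in control ID8. In PMJ2R they were 71.1, 78.8 and 71.2 CPM in treated libraries, against 55.2, 59.0 and 58.8 CPM in control libraries. In ID8 the lowest treated and the highest control library both stood at 31.1 CPM. The PMJ2R groups did not overlap, as for 84.3% of tested genes. The log2 fold change was 0.35 (SE 0.10) in ID8 and 0.50 (SE 0.0572) in PMJ2R, but -0.08 in ID8 and -0.06 in PMJ2R on library totals. With length and GC trends removed the log2 fold change was 0.64 in ID8 and 0.98 in PMJ2R. TPM divides counts by transcript length and scales them to each library's own total, without TMM factors. On that scale Slc39a14 stood at 25.2 ± 4.80 TPM in treated and 31.8 ± 2.63 TPM in control ID8. In PMJ2R it stood at 52.4 ± 3.22 TPM in treated and 60.6 ± 2.18 TPM in control libraries (SD, n = 3 each). The response in PMJ2R minus that in ID8 was 0.09 (SE 0.119).

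**Figure D3:**
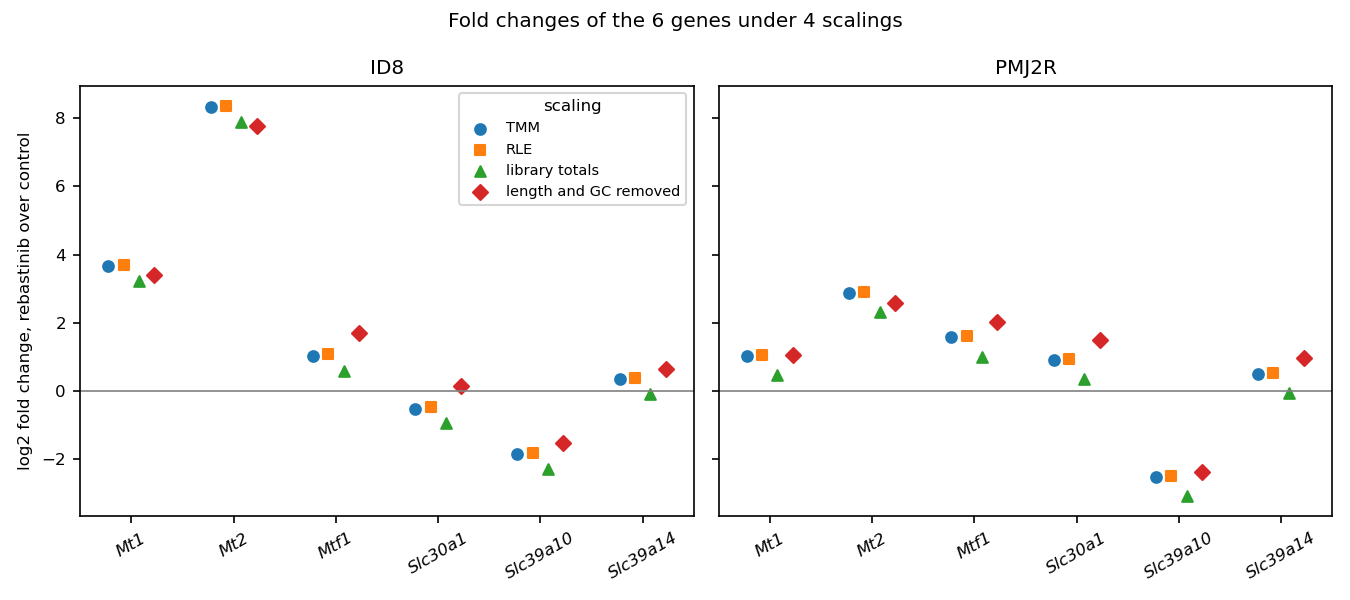
Log2 fold change, rebastinib over control, of the 6 genes in ID8 (left) and PMJ2R (right) under TMM, RLE, library totals and removal of length and GC trends. Mt1, Mt2 and Mtf1 lie above 0 and Slc39a10 below 0 at each of the 4 scalings, while Slc39a14 falls to -0.08 and -0.06 on library totals and Slc30a1 in ID8 reaches 0.16 after removal of length and GC trends.

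On a scale per length, control cells of the lines also ordered these genes differently. Mt1 stood at 459 ± 29.7 TPM in control PMJ2R and 48.0 ± 4.23 TPM in control ID8. Slc39a10 stood at 92.1 ± 6.48 TPM in control PMJ2R and 140 ± 7.11 TPM in control ID8 (SD, n = 3 each). Among the 6 genes Mt1 was thus the highest in control PMJ2R, and Slc39a10 the highest in control ID8. The lowest was Mt2 in both lines, at 10.9 ± 0.466 TPM in control PMJ2R and 0.526 ± 0.236 TPM in control ID8, with the uncertainty of shared exons given above. In control PMJ2R that place depends on the length used, since with the longest transcript Mt2 stood at 16.8 TPM and Mtf1 at 12.5 TPM.

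The difference between the control lines was not the contrast on which the genes were chosen. Its control libraries did enter the rise of Mt1 and Mt2 that guided the choice, so Mt1 and Mt2 carry no test here. The difference was tested with edgeR's quasi-likelihood test over 15924 genes, of which 82.3% passed at an adjusted p under 0.05. Of all tested genes 39.4% were higher and 42.9% lower in PMJ2R, so a pass is the usual outcome here. Mtf1, Slc30a1, Slc39a10 and Slc39a14 passed. Mt1 was higher in PMJ2R by 3.20 (SE 0.0821) on the log2 scale. Mt2 also entered this fit only through the PMJ2R libraries. Its log2 difference was 4.30 (SE 0.300), with 262 counts in PMJ2R and 11 in ID8. Among tested genes 7.18% had a larger log2 difference than Mt1 and 5.73% a larger one than Mt2. Slc39a14 was higher in PMJ2R by 0.88 (SE 0.0685, edgeR adjusted p = 3.28e-10) and Mtf1 by 0.36 (SE 0.0764, edgeR adjusted p = 0.000221). Slc30a1 was lower in PMJ2R, with a log2 difference of -1.28 (SE 0.0696, edgeR adjusted p = 8.81e-13), and Slc39a10 was lower with -0.66 (SE 0.0596, edgeR adjusted p = 3.07e-09). Each of the 6 kept its sign on library totals and after removal of length and GC trends, where Mtf1 was 1.33 and Slc30a1 was -0.40. For Mtf1, Slc30a1, Slc39a10 and Slc39a14 the 3 PMJ2R control libraries lay on one side of the 3 ID8 control libraries. That was the case for 83.1% of tested genes, with 39.9% higher and 43.3% lower in PMJ2R.

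The remaining zinc transporters had no common direction in ID8. Of 21 other listed exporters (Slc30a, ZnT) and importers (Slc39a, ZIP), 16 passed the filter on low counts, 6 were higher, 7 were lower and 3 did not pass the test, with a median log2 fold change of -0.06 against -0.07 over all tested genes. That is 13 of 16 called, beside 80.4% of all genes. On library totals the split was 3 higher and 11 lower. Slc39a6, which encodes the plasma membrane importer ZIP6, fell with 24.2 ± 2.78 CPM in treated and 44.0 ± 0.927 CPM in control cells (-0.83, SE 0.0890; SD, n = 3 each). Slc39a13, which encodes ZIP13 of the Golgi, fell with 7.53 ± 0.577 CPM in treated and 15.4 ± 0.472 CPM in control cells (-1.02, SE 0.109; SD, n = 3 each). Slc39a13 shares exons with Psmc3 on the other strand. Slc39a3 (ZIP3) also fell (-0.83, SE 0.136), but was not called after removal of length and GC trends (-0.23).

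Among exporters in ID8, Slc30a4 (ZnT4), which loads zinc into vesicles, rose with 118 ± 9.90 CPM in treated and 71.2 ± 4.04 CPM in control cells (0.75, SE 0.0779; SD, n = 3 each). Slc39a4 (ZIP4), the importer of dietary zinc, had few counts, with 65 in treated and 31 in control ID8 (1.55, SE 0.368). Slc39a2 (ZIP2) had 41 in treated and 11 in control ID8 (2.35, SE 0.469), and it shares exons on its own strand with Mettl17. Both are among the 6 counted as higher, but they reached the filter's minimum of 0.452 CPM in all 3 libraries of the treated group alone, so their calls carry no weight. Slc39a5 reached it in all 3 libraries of the control group alone. Slc39a1 (0.19), Slc39a11 (0.25) and Slc30a5 (0.16) passed on the higher side, but on library totals they were -0.24, -0.18 and -0.27. These 3 calls were lost without control ID8 replicate 2 (0.16, 0.19 and 0.16), which left 3 transporters called higher. Slc39a11 was also lost without treated replicate 2 (0.20), and Slc30a5 without treated replicate 3 (0.15) or without control replicate 1 (0.14) or 3 (0.17). Slc39a7 (-0.40) and Slc39a9 (-0.47) passed on the lower side and were not called after removal of length and GC trends (-0.16 and -0.08). Slc39a9, with 13214 counts over all libraries, shares exons with Erh on the other strand, which had 40217. Slc30a9 (-0.44) and Slc30a7 (-0.19) also passed as lower and turned to 0.07 and 0.37 under that removal. Slc30a7 was not called without treated replicate 1 (-0.15) or 2 (-0.18) or control replicate 1 (-0.22) or 2 (-0.14). Slc30a6 (0.09, SE 0.0898), Slc39a8 (0.08, SE 0.163) and Slc39a5 (-0.68, SE 0.402) did not pass. Slc39a8 was called with length and GC trends removed (0.66), and Slc39a5 without treated replicate 1 (-1.37) and on library totals (-1.11).

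In PMJ2R, 14 of the 21 other transporters passed the filter, 7 were higher, 4 were lower and 3 did not pass, with a median of 0.15 against -0.04 over all genes. That is 11 of 14 called, beside 83.7% of all genes. On library totals the split was 0 higher and 11 lower, so the higher calls depend on the scaling. Slc39a13 fell to 4.09 ± 0.377 CPM in treated cells, against 19.6 ± 1.35 CPM in control cells (-2.11, SE 0.112). Slc39a3 fell to 3.30 ± 0.392 CPM in treated cells, against 11 ± 0.532 CPM in control cells (-1.59, SE 0.128). Slc39a6 fell to 68.9 ± 1.22 CPM in treated cells, against 188 ± 4.59 CPM in control cells (-1.30, SE 0.0470; SD, n = 3 each). These 3 kept the direction under each scaling in both lines.

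The higher calls in PMJ2R were Slc39a4 (0.59), Slc39a1 (0.44), Slc30a6 (0.37), Slc30a7 (0.35), Slc30a4 (0.25), Slc39a11 (0.23) and Slc39a9 (0.18). On library totals Slc39a4 was 0.03 and the other 6 lay between -0.39 and -0.12. Slc30a4 was not called without control PMJ2R replicate 3 (0.14), and Slc39a11 not without treated replicate 2 (0.15). Slc39a5 passed as lower (-0.68, SE 0.307), on 37 counts in treated and 113 in control cells, and was not called without treated replicate 1 (-0.56) or 2 (-0.51) or control replicate 1 (-0.73) or 3 (-0.52). Slc30a5 (0.07, SE 0.0468), Slc30a9 (0.13, SE 0.0693) and Slc39a7 (-0.12, SE 0.112) did not pass. Slc39a8 (ZIP8) had 265 counts in treated and 349 in control ID8, against 0 in treated and 1 in control PMJ2R. A floor of 3 counts over a group corresponds to 0.0514 CPM in treated and 0.0398 CPM in control PMJ2R.

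**Figure D4:**
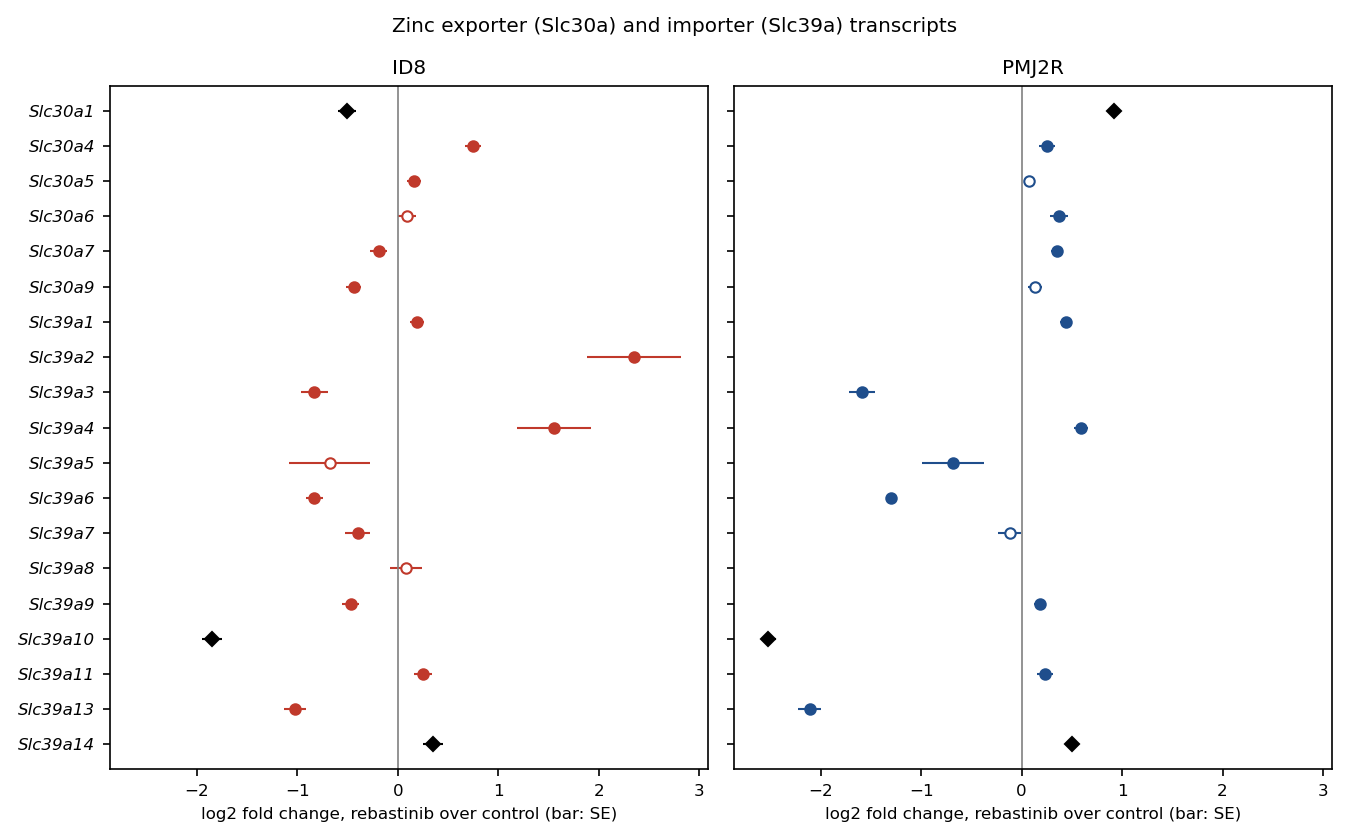
Log2 fold change, rebastinib over control, of each tested zinc exporter and importer gene in ID8 (left) and PMJ2R (right), with bars of 1 SE. Circles are filled where the adjusted p was under 0.05 and open otherwise, and black diamonds are Slc30a1, Slc39a10 and Slc39a14, which carry no test. In ID8, Slc39a2 and Slc39a4 reached the filter's minimum in all 3 libraries of the treated group alone, though Slc39a4 also did so in 2 control libraries. Slc39a3, Slc39a6, Slc39a10 and Slc39a13 lie below 0 in both lines.

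The response of some transporters differed between the lines in the interaction test over all 12 libraries, in which 52.4% of 16566 tested genes passed, with 21.8% higher and 30.6% lower. Of 16 other transporters tested, 3 had a higher and 6 a lower response in PMJ2R, and 7 did not pass. Slc39a13 had the more negative response in PMJ2R (difference -1.16, SE 0.162, edgeR adjusted p = 2.06e-06), as did Slc39a3 (-0.82, SE 0.195, edgeR adjusted p = 0.00103) and Slc39a6 (-0.54, SE 0.0995, edgeR adjusted p = 7.89e-05). Slc39a9 had the more positive one (0.58, SE 0.103, edgeR adjusted p = 3.99e-05). Slc39a2 had the lowest value (-2.11, SE 0.732) on few counts in both lines. It averaged 0.730 CPM in treated ID8, against 0.138 CPM in control ID8, 0.222 CPM in treated PMJ2R and 0.198 CPM in control PMJ2R. It thus entered this fit through treated ID8 alone, and its call, among the 6 lower, carries no weight. That call was lost with DESeq2 (-2.04), without control ID8 replicate 1 (-1.84) or without control PMJ2R replicate 3 (-1.93). For the 6 chosen genes the same differences are descriptions, namely -2.69 (SE 0.168) for Mt1, -5.51 (SE 0.465) for Mt2, 0.48 (SE 0.119) for Mtf1 and -0.73 (SE 0.134) for Slc39a10. All of these comparisons share their libraries with the values above.

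Reported targets of MTF1 other than the metallothioneins and Slc30a1 went both ways. Of 7 listed, 6 were tested in each line, with 4 higher and 2 lower in ID8 and 3 higher and 3 lower in PMJ2R, and all 6 passed in each line, beside 80.4% of all genes in ID8 and 83.7% in PMJ2R. Selenow, which encodes a small selenoprotein, rose in ID8 to 190 ± 43.0 CPM in treated cells, against 52.7 ± 3.33 CPM in control cells (1.87, SE 0.130). In PMJ2R it stood at 32.9 ± 1.57 CPM in treated and 16.1 ± 1.26 CPM in control cells (1.17, SE 0.0776; SD, n = 3 each). Selenoh also rose in both lines (0.93 in ID8 and 0.57 in PMJ2R), although in PMJ2R it was 0.00 on library totals. Cebpa, a transcription factor gene, fell in ID8 to 3.97 ± 0.662 CPM in treated cells, against 26.2 ± 0.816 CPM in control cells (-2.69, SE 0.121). In PMJ2R it fell to 2.93 ± 0.527 CPM in treated cells, against 30.8 ± 1.79 CPM in control cells (-3.25, SE 0.116; SD, n = 3 each). Csrp1 rose in ID8 (0.80) and in PMJ2R (0.35, but -0.22 on library totals). Ndrg1 fell in ID8 (-0.97) and in PMJ2R (-0.28), where the call was lost without treated replicate 1 (-0.30), 2 (-0.29) or 3 (-0.24) or control replicate 2 (-0.29).

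Gclc, the catalytic subunit of the first enzyme of glutathione synthesis, went opposite ways. It stood at 112 ± 13.8 CPM in treated and 84.7 ± 1.12 CPM in control ID8 (0.43, SE 0.0814, but 0.00 on library totals), and at 109 ± 3.44 CPM in treated and 237 ± 6.13 CPM in control PMJ2R (-0.98, SE 0.0458; SD, n = 3 each). The difference between the lines was -1.47 (SE 0.0977, edgeR adjusted p = 1.57e-11). Pgf, the remaining listed target, had 3 counts in treated and 15 in control ID8 and 0 in treated and 28 in control PMJ2R, and was not tested.

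Of 5 genes of other zinc handling, 3 were tested in ID8 and 1 in PMJ2R. Gpr39, the zinc-sensing receptor, rose in ID8 to 81.1 ± 0.226 CPM in treated cells, against 55.8 ± 1.48 CPM in control cells (0.57, SE 0.0671; SD, n = 3 each), and was not called on library totals (0.13). It shares exons with Lypd1 on the other strand and had 0 counts in PMJ2R. Tmem163, a vesicular zinc transporter gene, had 15 counts in treated and 61 in control ID8 (-1.51, SE 0.386), entered the test through the control libraries alone, and shares exons with Mgat5. Mcoln1, a lysosomal cation channel, fell in PMJ2R (-0.51, SE 0.0740), and in ID8 it did not pass (-0.06, SE 0.0817), although on library totals it was called there too (-0.49). S100a8 and S100a9, which encode the zinc-binding protein calprotectin, had at most 4 counts in any group.

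The genes most like Mt1 and Mt2 were named by the correlation of log2 CPM over the 12 libraries, among 9713 protein-coding genes whose mean level reached 5 CPM. The correlation does not compare the size of changes. These correlations describe 4 groups of libraries and carry no test. Mt1 was most like Larp4b (r = 0.995), Tpgs2 (0.995), Aagab (0.994), Atic (0.994) and Pes1 (0.993), each lowest in control ID8. Larp4b averaged 175 CPM in treated and 110 CPM in control ID8, where Mt1 averaged 268 and 21.6 CPM. Mt2 was most like Mrpl46 (r = 0.992), Nup50 (0.991), Pus1 (0.991), Sumf1 (0.989) and Ctsl (0.988). Mt1 and Mt2 correlated with each other at 0.909, which ranked Mt2 at place 464 for Mt1. Slc39a10 and Mtf1 ran opposite to each other (r = -0.982), and that pair was singled out after its values were seen. Slc30a1 correlated with Mt1 at -0.593 and with Mt2 at -0.342.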

How the data were processed

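The authors deposited raw counts per gene for 55421 Ensembl identifiers in 12 libraries, 3 in each of 4 groups taken from the sample titles. Per the submitters' processing notes the build was GRCm38, and the tools listed, without roles, were featureCounts, STAR 2.6.1c, DESeq2 and FastQC. The sources used here do not give the annotation, strand setting or handling of multi-mapped reads. Symbols, positions and lengths came from GENCODE vM21 (GRCm38), in which 181 identifiers holding 0.00261% of counts lacked a symbol. Where identifiers shared a symbol, the more abundant one was used (116 others). Depth limits precision, and intervals cover counting error only.

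The 6 genes, the gene lists and the marker lists were chosen with earlier results of these data known. Counts were tested with edgeR 4.0.16 in R 4.3.3 (TMM, the default expression filter by group, the robust quasi-likelihood test and Benjamini-Hochberg adjustment at 0.05 over all tested genes). Comparisons were rebastinib against control in each line, control PMJ2R against control ID8, and the difference of response as an interaction over all libraries. TPM used the mean transcript length of a gene. Genes named were the 6, every tested ZnT, ZIP and metallothionein gene, up to 4 genes of each other list and line with the smallest p, and the 5 most like Mt1 and Mt2.

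Library pairs within a group differed by 1.67 to 21.4 chi-square per degree of freedom, so none was merged. Scripts were tested on simulated counts in which few genes changed, in either direction. In the real ID8 comparison 80.4% of tested genes differed, so the simulated rates need not hold for these data. In the ID8 comparison over 14839 genes they recovered 81.8% of genes changed 1.5-fold, 95.7% of those changed 2-fold and 100% of those changed 4-fold, with 5.13% of calls false. In the difference of response over 16460 genes they recovered 64.2% at 1.5-fold, 85.5% at 2-fold and 87.3% at 4-fold, with 1.83% false. Alternatives were RLE size factors, library totals, DESeq2 1.42.0, other filters, a replicate block, removal of length and GC trends, and each library left out.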

Additional observations from a re-analysis of the deposited data

Results flagged for a closer look

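The response to rebastinib in PMJ2R minus the response in ID8, on the log2 scale, marked the following genes for a closer look. For Slc30a1 the libraries of the lines moved in opposite directions under TMM scaling (1.36), and this difference was not tested because the gene was among those chosen. With length and GC trends removed Slc30a1 was above 0 in both lines (0.16 in ID8 and 1.51 in PMJ2R). For the others the interaction test of edgeR passed at an adjusted p under 0.05, as it did for 52.4% of all tested genes.

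Among zinc transporters the response was higher in PMJ2R for Slc30a7 (0.48), Slc30a9 (0.51) and Slc39a9 (0.58). It was lower for Slc30a4 (-0.57), Slc39a3 (-0.82), Slc39a4 (-1.01), Slc39a6 (-0.54) and Slc39a13 (-1.16). Slc39a2 was also lower (-2.11), but it was too low to be tested within PMJ2R and entered through treated ID8 alone, so its call carries no weight. Outside the transporters the response was lower for the lysosomal channel gene Mcoln1 (-0.52). Slc39a4 was not called without treated ID8 replicate 1 (-0.72) or control ID8 replicate 1 (-0.82). After removal of length and GC trends Slc30a7 (0.13) and Slc30a9 (0.20) were not called.

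Among reported MTF1 targets Ndrg1 had the higher response in PMJ2R (0.63), and Cebpa (-0.63), Selenow (-0.76), Csrp1 (-0.51), Gclc (-1.47) and Selenoh (-0.43) had the lower one. Selenoh was not called with RLE size factors or DESeq2 (-0.31 each) or with length and GC trends removed (-0.12). Among copper genes the response was higher for Atp7a (2.73) and Slc31a1 (0.50) and lower for Ccs (-0.67) and Steap3 (-2.77), and Slc31a1 was not called with length and GC trends removed (0.06). Among glucocorticoid-responsive genes it was higher for Tsc22d3 (1.91) and Nr3c1 (0.30) and lower for Sgk1 (-0.74) and Fkbp5 (-0.70). Nr3c1 was not called without treated ID8 replicate 1 (0.17), control ID8 replicate 2 (0.26), treated PMJ2R replicate 1, 2 or 3 (0.29 each) or control PMJ2R replicate 3 (0.25), nor on library totals (0.23), without an expression filter (0.24) or with length and GC trends removed (0.15).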

How the results depend on the processing

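Scaling moved the values most, and the cause was not tested. On library totals the log2 fold changes in ID8 were 3.22 for Mt1, 0.60 for Mtf1, -0.94 for Slc30a1, -2.28 for Slc39a10 and -0.08 for Slc39a14, and in PMJ2R 0.46 for Mt1, 2.32 for Mt2, 1.01 for Mtf1, 0.35 for Slc30a1, -3.08 for Slc39a10 and -0.06 for Slc39a14. With length and GC trends removed they were 3.40 for Mt1, 1.70 for Mtf1, 0.16 for Slc30a1, -1.51 for Slc39a10 and 0.64 for Slc39a14 in ID8, and 2.57 for Mt2, 2.02 for Mtf1, 1.51 for Slc30a1, -2.38 for Slc39a10 and 0.98 for Slc39a14 in PMJ2R. Without an expression filter the PMJ2R values were 0.82 for Mt1, 2.67 for Mt2, 1.36 for Mtf1, 0.70 for Slc30a1, -2.73 for Slc39a10 and 0.29 for Slc39a14. Where genes had to average 5 CPM or more they were 2.82 for Mt2 and 0.86 for Slc30a1, and Mt2 had no value between the control lines.

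Other genes reversed on library totals, in ID8 Slc30a5 (-0.27), Slc30a6 (-0.34), Slc39a1 (-0.24), Slc39a11 (-0.18) and Fkbp5 (-0.22), and in PMJ2R Slc30a4 (-0.32), Slc30a5 (-0.49), Slc30a6 (-0.20), Slc30a7 (-0.21), Slc30a9 (-0.44), Slc39a1 (-0.12), Slc39a9 (-0.39), Slc39a11 (-0.34), Csrp1 (-0.22) and Sgk1 (-0.30). With length and GC trends removed, Slc30a7 (0.37), Slc30a9 (0.07) and Klf9 (0.09) reversed in ID8, and Slc39a7 (0.35) and Klf9 (0.03) in PMJ2R. Without a filter Slc30a5 (-0.14) and Slc39a9 (-0.03) reversed in PMJ2R.

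On library totals 3 other transporters were called higher and 11 lower in ID8, and 0 higher and 11 lower in PMJ2R, with 7 genes of the other lists higher in each line and 3540 of all genes higher in ID8 and 3103 in PMJ2R. Transporters called higher in ID8 numbered 1 where genes had to average 5 CPM or more, and 2 were called lower with length and GC trends removed. In PMJ2R 2 were higher and 7 lower without a filter, and 5 genes of the other lists were lower with length and GC trends removed. For the difference of response 5 were higher with RLE size factors and 5 with DESeq2. Leaving out 1 library gave 3 to 6 transporters higher in ID8. It kept the sign of the 6 genes between the control lines, and the calls of those tested there.

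Replicate numbers did not pair the libraries, with correlations of same-numbered deviations of -0.19, -0.01 and -0.40 in ID8 and 0.08, 0.02 and 0.09 in PMJ2R. With the replicate block 3 transporters were called higher in ID8, as Slc30a5, Slc39a1 and Slc39a11 no longer passed, and 6 were called lower, as Slc30a7 no longer passed.

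Depth limits Mt2 in control ID8 (11 counts) and Slc39a2, Slc39a4, Slc39a5, Tmem163 and Pgf.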

Other observations

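Copper genes were listed because metallothioneins also bind copper. Of 12 listed, 12 were tested in ID8, with 7 higher, 4 lower and 1 not past the test, beside 80.4% of all genes called. In PMJ2R 10 were tested, with 6 higher, 3 lower and 1 not past, beside 83.7%. The copper chaperone genes Atox1 (1.26, SE 0.0909 in ID8 and 1.12, SE 0.0632 in PMJ2R) and Ccs (1.34, SE 0.105 in ID8 and 0.73, SE 0.0627 in PMJ2R) rose in both lines. Slc31a1, the copper importer CTR1, rose in PMJ2R (1.07, SE 0.0524) and in ID8 (0.50, SE 0.0717), where it was 0.07 and not called on library totals.

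The copper-exporting ATPase gene Atp7a went opposite ways. Its levels were 16.0 ± 5.29 CPM in treated and 36.0 ± 3.22 CPM in control ID8 (-1.13, SE 0.167), and 73.5 ± 3.41 CPM in treated and 25.7 ± 2.05 CPM in control PMJ2R (1.66, SE 0.0659; SD, n = 3 each). The difference of response was 2.73 (SE 0.201, edgeR adjusted p = 1.74e-09). Atp7b, its relative known from liver, had 1 count in treated and 113 in control ID8, and it entered the test, and the 4 lower, through the control libraries alone. Steap3, a metalloreductase gene, stood at 16.1 ± 1.46 CPM in treated and 10.2 ± 0.954 CPM in control ID8 and at 9.41 ± 0.533 CPM in treated and 42.1 ± 1.81 CPM in control PMJ2R (SD, n = 3 each). Steap2 fell in ID8 to 85.8 ± 12.8 CPM in treated cells, against 221 ± 7.05 CPM in control cells (-1.34, SE 0.0893; SD, n = 3 each), and had 8 counts in treated and 1 in control PMJ2R.

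Glucocorticoids are the other well-known inducers of metallothionein genes. Of 8 glucocorticoid-responsive genes listed, 7 were tested in each line, with 3 higher, 3 lower and 1 not past in ID8 and the same split in PMJ2R. That is 6 of 7 called, beside 80.4% of all genes in ID8 and 83.7% in PMJ2R. Tsc22d3 fell in ID8 (-0.52, SE 0.108) and rose in PMJ2R (1.46, SE 0.0866). Fkbp5 passed as higher in ID8 (0.21, but -0.22 on library totals, and not called without control ID8 replicate 2, 0.20) and passed as lower in PMJ2R (-0.42, but -0.13 and not called with length and GC trends removed). Sgk1 rose in ID8 (0.94) and passed in PMJ2R (0.26, but -0.30 on library totals), where it was not called without treated replicate 1 (0.24) or control replicate 2 (0.23) or 3 (0.20). Nr3c1, the glucocorticoid receptor gene, was higher in ID8 (0.61, but 0.18 and not called on library totals) and in PMJ2R (0.97). Dusp1 and Klf9 fell in both lines, with -0.67 and -0.44 in ID8 and -0.64 and -0.34 in PMJ2R, but Klf9 turned to 0.09 in ID8 and 0.03 in PMJ2R with length and GC trends removed. Under that removal Dusp1 in PMJ2R was -0.27 and not called, and with DESeq2 it was -0.60 and not called. Dusp1, with 1272 counts over all libraries, shares exons with Ergic1 on the other strand, which had 50945.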
